A study of Mus musculus with 4 samples.

Results

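Abcb1b, Endod1, Gm2016 and Rhox13 are genes whose link to YAP binding in mouse embryonic stem cells (ESCs) rests on a distant ChIP-Seq peak. They are 4 of 22367 annotated coding genes and were chosen by their measured RNA, which was lower in YAP KD cells and higher in YAP OE cells, and by a peak of the first ChIP-Seq replicate that was linked to them and lay more than 50 kb from the transcription start site (TSS). Mapt and Gm21293 meet the same criteria, which gives 6 genes, but were not among the 4 described here. The expression changes and the links were therefore the basis of the choice and count for nothing more below. The chromatin came from undifferentiated E14Tg2a cells, a mouse ESC line kept without feeder cells in serum and LIF, and was precipitated with a rabbit polyclonal antibody against YAP in 2 replicates. Input chromatin of the same cells was sequenced as well and was not used here. KD cells carried siRNAs against YAP, OE cells a plasmid encoding mouse YAP, and their controls a negative control siRNA or the empty plasmid.

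YAP is a transcriptional cofactor that the Hippo kinases keep out of the nucleus. It has no DNA-binding domain of its own and reaches chromatin mostly through TEAD factors, which recognise the core sequence CATTCC. In other cell types much of its binding lies in distal enhancers, so that a peak far from a promoter can be assigned to a gene only by distance or by contact data. Of the 4 genes, Abcb1b encodes a P-glycoprotein, an ATP-driven pump that exports drugs and other lipophilic compounds from the cell. Endod1 encodes a protein with an endonuclease domain, Rhox13 is a homeobox gene of the X-linked Rhox cluster, and Gm2016 is a predicted gene in a cluster of similar genes on chromosome 12.

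The reference sequence (mm9, plus strand) of 201 bp centred on the summit is shown for the Abcb1b peak, because it recurs in a neighbouring gene, and for the Rhox13 peak, as a summit of repeated sequence without the TEAD core. Letters are in lower case except where the TEAD core CATTCC, or GGAATG on the other strand, occurs.
Abcb1b peak, chr5:8848895-8849095: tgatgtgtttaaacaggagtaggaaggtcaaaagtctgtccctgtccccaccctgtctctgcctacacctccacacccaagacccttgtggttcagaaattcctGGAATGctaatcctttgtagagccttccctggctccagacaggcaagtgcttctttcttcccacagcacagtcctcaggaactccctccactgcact
Rhox13 peak, chrX:35533431-35533631: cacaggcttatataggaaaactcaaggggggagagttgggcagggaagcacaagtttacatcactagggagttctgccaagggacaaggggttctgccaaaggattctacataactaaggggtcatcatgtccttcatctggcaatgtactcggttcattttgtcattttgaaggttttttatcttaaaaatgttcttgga

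Of the 4 peaks, the Abcb1b peak was the one with the TEAD core within 100 bp of the summit, where it starts 4 bp from the summit. Over the 411 replicate 1 peaks on assembled chromosomes, 41 (9.98%) held the core in such a window. The core occurred 2 times in the whole Abcb1b peak, 1 time in the Gm2016 peak and 0 times in the other peaks. The 4 peaks differ in length, from 790 to 1420 bp, and the Abcb1b peak is the longest. The share of all peaks with the core anywhere in the peak is not given here, so these counts have no background. Binding of TEAD at the Abcb1b core was not tested.

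Each gene had 1 peak of replicate 1 and 0 peaks of replicate 2 within 500 kb of its TSS. For all coding genes, a replicate 1 peak within 500 kb was found for 15.6% and a replicate 2 peak for 5.40%, and 13.2% had the nearest replicate 1 peak between 50 and 500 kb away. Among the coding genes with a replicate 1 peak in range, 64.0% likewise had exactly 1 of replicate 1 and none of replicate 2. Since the choice of genes used the replicate 1 peaks, these shares give the setting and support nothing about the 4.

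Abcb1b (ENSMUSG00000028970.5) is a plus-strand gene of chromosome 5 and spans 8798147 to 8866314 in mm9. Its peak extended from 8848367 to 8849786, inside the gene, and the summit at 8848995 was in intron 22 of 27, 50848 bp downstream of the TSS. The peak held 49 tags, as mapped reads are called, or 0.000216% of the unique tags of replicate 1 (95% Wilson interval 0.000163% to 0.000285%, counting error only). Unique tags are those that the peak caller kept after removing duplicates at the same position, not tags that map to a single place. The mapping allowed several positions per read, so tags need not be independent reads, which the intervals assume. Its score, which is 10 times the negative log10 of the p-value, was 50.35 and its fold enrichment over the local background was 5.62. This is the only one of the 4 summits within its own gene, and it was also the weakest by score, since only 11 of 447 replicate 1 peaks scored lower. At 50848 bp it lay just beyond the 50 kb that the choice required. The other genes with the same directions of change and a linked peak nearer than 50 kb were Ctgf, with the summit at -55 bp, and Wwc2, with the summit at -104 bp.

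Endod1 (ENSMUSG00000037419.7) is a minus-strand gene of chromosome 9 (14158434 to 14185951). Its peak, from 14248948 to 14250310, was outside annotated genes, with the summit at 14249545, 63594 bp upstream of the TSS. It held 46 tags (0.000203%, interval 0.000152% to 0.00027%), scored 69.48 and was enriched 7.29-fold. This was the highest score among the 4 and lay near the middle of the list, with 230 of 447 peaks below it.

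Gm2016 (ENSMUSG00000079029.1) is annotated at 89112520 to 89116383 of chromosome 12, plus strand. The linked peak extended from 89344945 to 89345734 and its summit, at 89345620, was in an intron of Gm6804, a gene on the minus strand, 233100 bp downstream of the Gm2016 TSS. It was the shortest of the 4 peaks, at 790 bp, and held the fewest tags, 23 (0.000101%, interval 6.75e-05% to 0.000152%). It scored 66.37 and was enriched 11.63-fold. Only 34 of 447 peaks held fewer tags, whereas 347 had a lower fold enrichment, so this peak ranked low by tags and high by fold.

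Rhox13 (ENSMUSG00000050197.4) is a plus-strand gene of chromosome X (35474396 to 35483143). Its peak, from 35532880 to 35534088, had the summit at 35533531, 59135 bp downstream of the TSS and beyond the end of the gene. The peak reached 184 bp into the pseudogene Gm14556, which starts 374 bp past the summit. It held 34 tags (0.00015%, interval 0.000107% to 0.000209%), scored 66.21 and was enriched 8.02-fold, and 213 of 447 peaks scored lower.

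Compared with the whole list, the scores of the 4 peaks lay between 50.35 and 69.48 where the median of replicate 1 was 68.05, the tags between 23 and 49 where the median was 46, and the folds between 5.62 and 11.63 where the median was 8.97. The lowest score in the list was 50.01, at the cutoff of the peak caller. Per kb of peak, the 4 held 28.1 tags (Rhox13), 29.1 (Gm2016), 33.7 (Endod1) and 34.5 (Abcb1b). The Wilson intervals apply to the raw tag share, which is not divided by peak length, and were not computed per kb. For the lowest and highest raw share, those of Gm2016 (790 bp) and Abcb1b (1420 bp), they did not overlap. These are the extremes of the 4, and how often the intervals of other pairs of peaks overlap was not computed. The difference is therefore no result about these peaks.

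**Figure D1:**
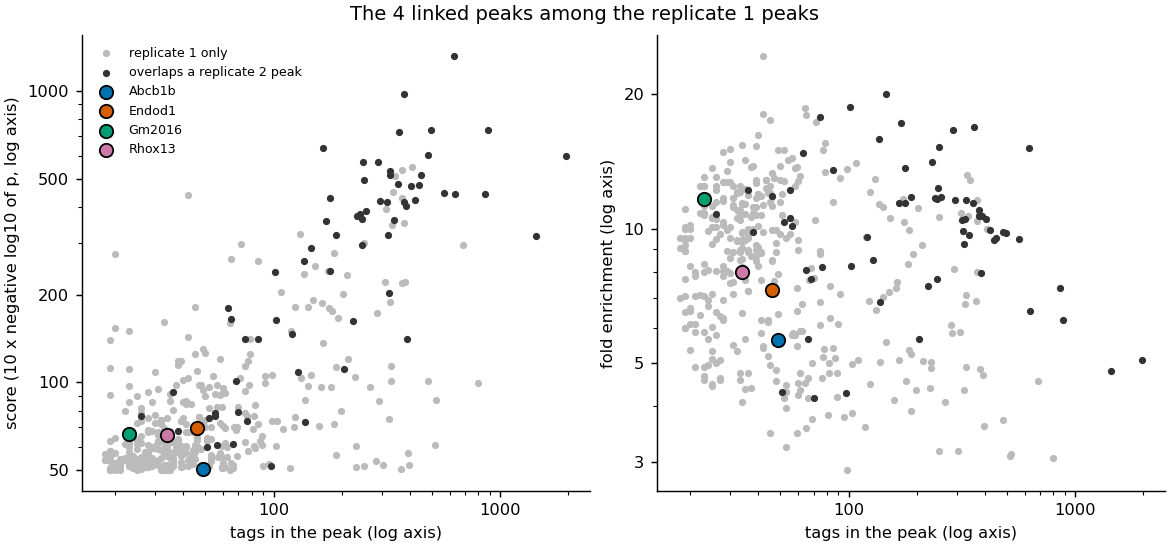
Each point is 1 of the 447 replicate 1 peaks, with its tags on the x axis and its score (left) or fold enrichment (right) on the y axis, all on log axes. Dark points overlap a replicate 2 peak, and the 4 coloured peaks, with 23 to 49 tags and scores of 50.35 to 69.48, sit among the peaks of replicate 1 only.

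None of the 4 peaks was found in replicate 2. The share of replicate 1 peaks that overlapped a replicate 2 peak by at least 1 bp was 14.8% over the whole list (66 of 447). It was 2.73% (6 of 220) among the peaks with scores in the range of the 4, and 1.95% (4 of 205) among those with 23 to 49 tags, against 41.6% (52 of 125) at scores of at least 100. The count of 0 among 4 is therefore what most peaks of this strength showed. Replicate 2 was shallower, with 14965024 unique tags against 22696949, a ratio of 0.659. At that ratio the 4 peaks would hold 32.3 tags (Abcb1b), 30.3 (Endod1), 15.2 (Gm2016) and 22.4 (Rhox13), and the smallest peak called in replicate 2 held 15. Peaks were called by p-value and not by a number of tags, and the lowest score in replicate 2 was 50.07. The scores of the 4 were not rescaled to that depth, so the tag counts do not show that the 4 would have been called there. A signal below the calling cutoff in replicate 2 cannot be told apart from no signal, since the list holds called peaks only.

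The nearest replicate 2 peak lay far from each gene. For Gm2016 it was 1443840 bp away (90556122 to 90556868), held 17 tags, scored 57.16 and was enriched 8.06-fold. For Abcb1b it was 6175519 bp away (14973021 to 14974289), held 33 tags and scored 72.99. For Endod1 it was 7805015 bp away (18 tags, score 62.05) and for Rhox13 it was 38370003 bp away (76 tags, score 172.57). The median over all coding genes was 8.32 Mb, so 3 of the 4 were nearer than the median gene and Rhox13 was farther. In replicate 1 the next peak after the linked one was 1948130 bp from Endod1, 3599671 bp from Gm2016, 3668668 bp from Abcb1b and 5552773 bp from Rhox13, and the median nearest peak of all coding genes was at 2.32 Mb. That median is for the nearest peak, and the distance to the next peak was not computed for other genes, so the values are not alike. No further peak of either replicate lay within 500 kb of the 4 genes. The same held for 64.0% of the coding genes with a replicate 1 peak in range.

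**Figure D2:**
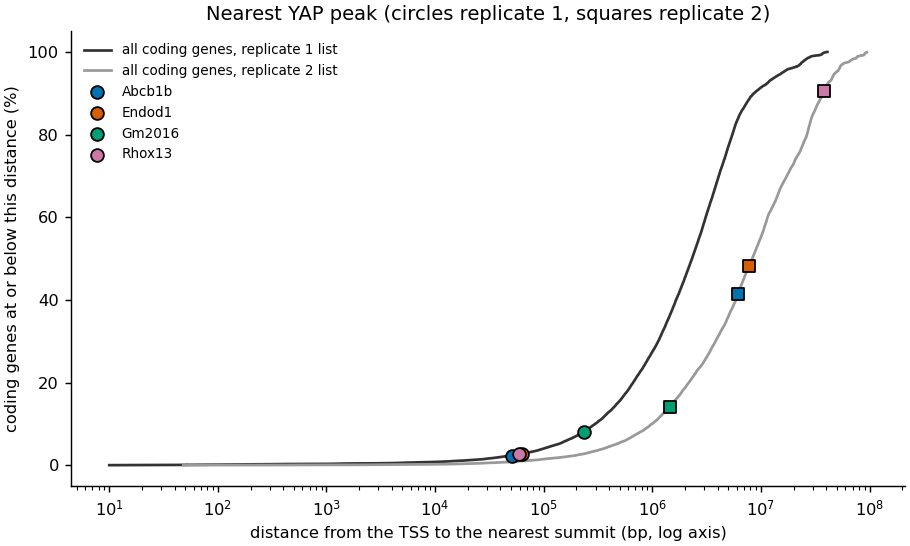
The lines give the percentage of all 22367 coding genes whose nearest summit lies at or below the distance on the log x axis (bp), for the replicate 1 (dark) and replicate 2 (grey) lists. The 4 genes lie between 50848 and 233100 bp in replicate 1 (circles) and between 1443840 and 38370003 bp in replicate 2 (squares).

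Another coding gene had its TSS nearer to the peak in all 4 cases. For the Abcb1b peak this was Abcb4, the exporter of phosphatidylcholine into bile, whose TSS lay 44722 bp beyond the summit, nearer than that of Abcb1b. For the Endod1 peak the TSS of Kdm4d, a demethylase of histone H3 lysine 9, was at 55381 bp and that of Cwc15, a spliceosome-associated protein, at 55516 bp, on the side away from Endod1. For the Rhox13 peak the TSS of Zbtb33, which encodes the methyl-CpG-binding factor Kaiso, was at 9439 bp. For the Gm2016 peak 7 coding genes were nearer than the annotated Gm2016, led by Gm6804 at 35105 bp, Gm10436 at 74718 bp, Gm6803 at 111295 bp, Gm2046 at 133648 bp and Gm2042 at 152748 bp. The 7 also include Gm5662 at 216813 bp and Gm2075, which overlaps Gm2016 on the same strand. The Gm2075 TSS, at 233058 bp, nearly coincides with that of Gm2016, at 233100 bp. Among all 2963 coding genes with the nearest replicate 1 peak between 50 and 500 kb away, 95.4% had another coding TSS nearer to that peak, and the figure was 59.1% for the 516 genes with a peak within 50 kb. A nearer neighbour is thus the usual state at such distances and is not particular to the 4 genes.

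Of these nearer genes, Gm5662 was also among the genes lower in YAP KD, but it contains a near-identical copy of Gm2016 (described below). How RNA reads were divided between Gm5662 and Gm2016 was not examined, so the change of Gm5662 is not a separate observation here. No other nearer gene was listed in YAP KD or YAP OE. Farther out, within 500 kb of the Abcb1b summit, Abcb1a, the other P-glycoprotein gene of the mouse, was lower in YAP KD and Adam22 was lower in YAP OE. The division of RNA reads between Abcb1a and Abcb1b was not examined either. Around the Gm2016 summit, Gm4027 was lower in YAP KD and higher in YAP OE, and Gm8300 was lower in YAP KD. Gm8300 is among the Gm2016 relatives listed below. How RNA reads were divided among Gm2016, Gm8300 and Gm4027 was not examined. Around the Rhox13 summit, Rhox9 (278487 bp) was higher in YAP KD and Rhox6 (353444 bp) was higher in both YAP KD and YAP OE. These neighbours went in differing directions, and their number was not set against that of all genes here. Within 500 kb of the 4 summits lay the TSS of 11 (Abcb1b), 12 (Endod1), 16 (Gm2016) and 23 (Rhox13) coding genes, where the median replicate 1 peak had 9.

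**Figure D3:**
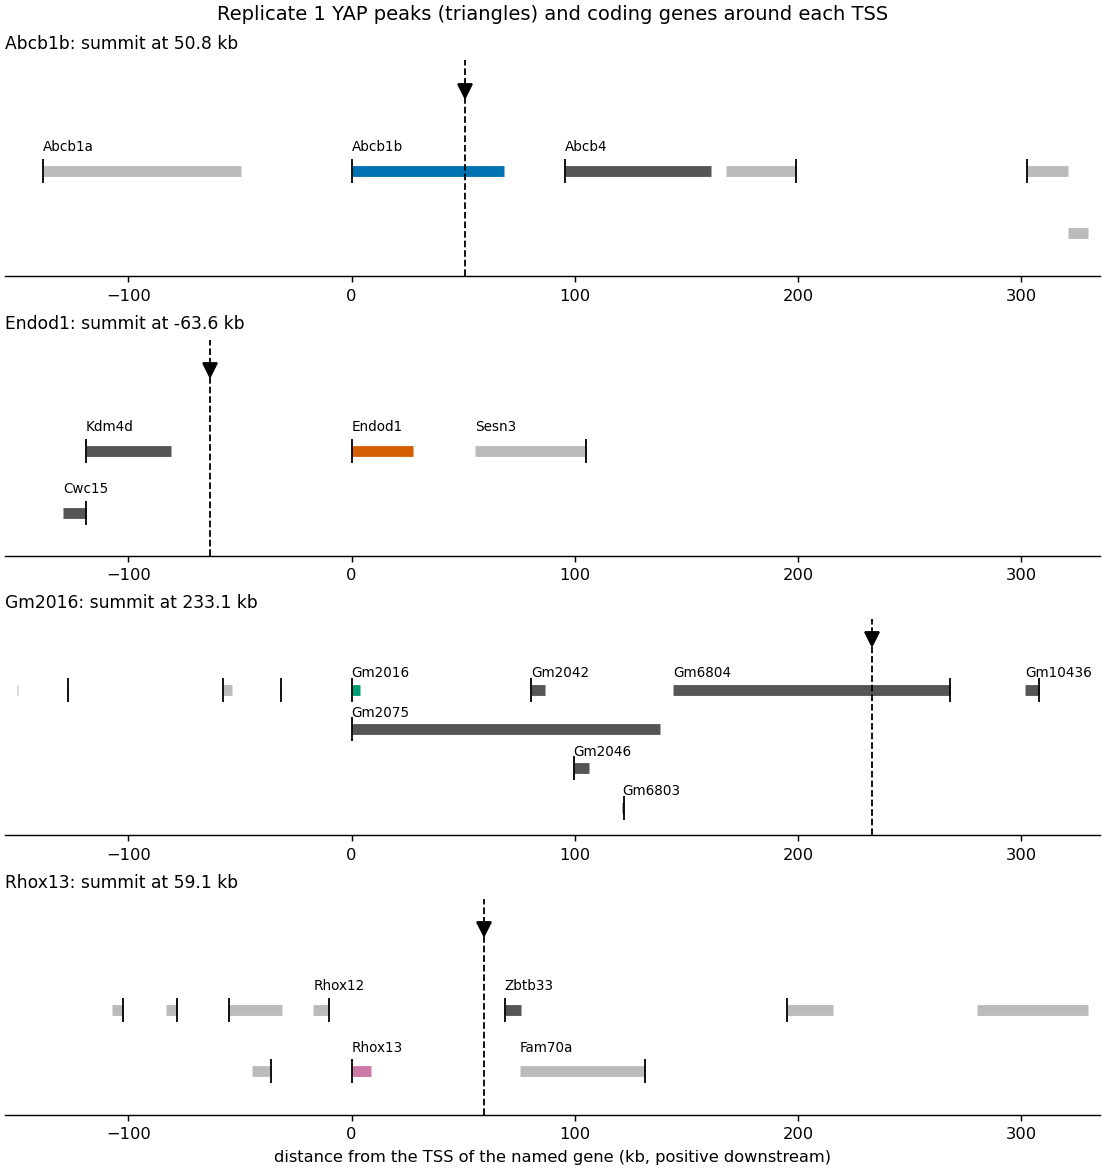
Coding genes around each TSS, in kb from the TSS of the gene that heads the panel (positive is downstream), with the summit of its replicate 1 peak as a triangle and dashed line and the TSS of each gene as a black tick. Dark grey genes have a TSS nearer to the summit than the coloured gene has, and the summits lie at 50848, -63594, 233100 and 59135 bp.

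The Abcb1b peak lies in sequence that is duplicated in Abcb1a. Of its 1396 25-mers, the length of a tag in the headers, 702 (50.3%) occurred once in the genome and the other 694 occurred 2 or 3 times. The headers give this length as a setting, and shares for longer reads were not computed for any peak. All but 1 of the repeated 25-mers, 693, recurred between 8732894 and 8733734 of chromosome 5, inside Abcb1a. The whole 201 bp window printed above, with its TEAD core, occurred without a mismatch from 8732979 to 8733179 on the same strand. That copy is in intron 22 of 27 of Abcb1a, the same intron number as in Abcb1b, and its centre is 73002 bp from the Abcb1a TSS. No 25-mer within 100 bp of the summit was unique, so tags in this window could not be assigned to Abcb1b rather than Abcb1a by sequence. Neither list held a peak at the Abcb1a copy.

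The Endod1 summit lies in sequence with many copies. Of the 1339 25-mers of the peak, 827 (61.8%) occurred once, while 419 (31.3%) occurred more than 100 times, and the commonest was found at 1149949 places. Within 100 bp of the summit 0% were unique. The flanks of the peak were mostly unique on both sides of it.

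The Gm2016 peak was the least unique of the 4, with 141 of 766 25-mers (18.4%) found once and 382 (49.9%) found more than 100 times. Within 100 bp of its summit 26.0% were unique. The Rhox13 peak had 514 of 1185 25-mers (43.4%) found once, 458 found 2 to 10 times and 73 (6.16%) found more than 100 times, and 13.6% were unique near the summit. Over the 411 replicate 1 peaks the median share of unique 25-mers was 71.0% in the whole peak and 26.0% near the summit, and 77 (18.7%) had no unique 25-mer near the summit. All 4 peaks were thus below the median for the whole peak, at percentiles from 17.8 to 43.3, and at or below it near the summit. Among the 206 of these peaks with scores in the range of the 4, the median near the summit was 19.5% and 44 (21.4%) had no unique 25-mer there, so that Gm2016 lay above and the other 3 below the median of peaks of like strength. Among the 60 replicate 1 peaks found in replicate 2, the median near the summit was 58.5%. The authors' mapping tracked up to 100 positions per read (-m 100, a setting that drops reads with more) and weighted each. By that setting a read of 25 bases could place no tag at a 25-mer found more than 100 times, as at the Endod1 summit. How tags came to be counted around such 25-mers, and the part of the mapping in the 4 peaks, were not tested.

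**Figure D4:**
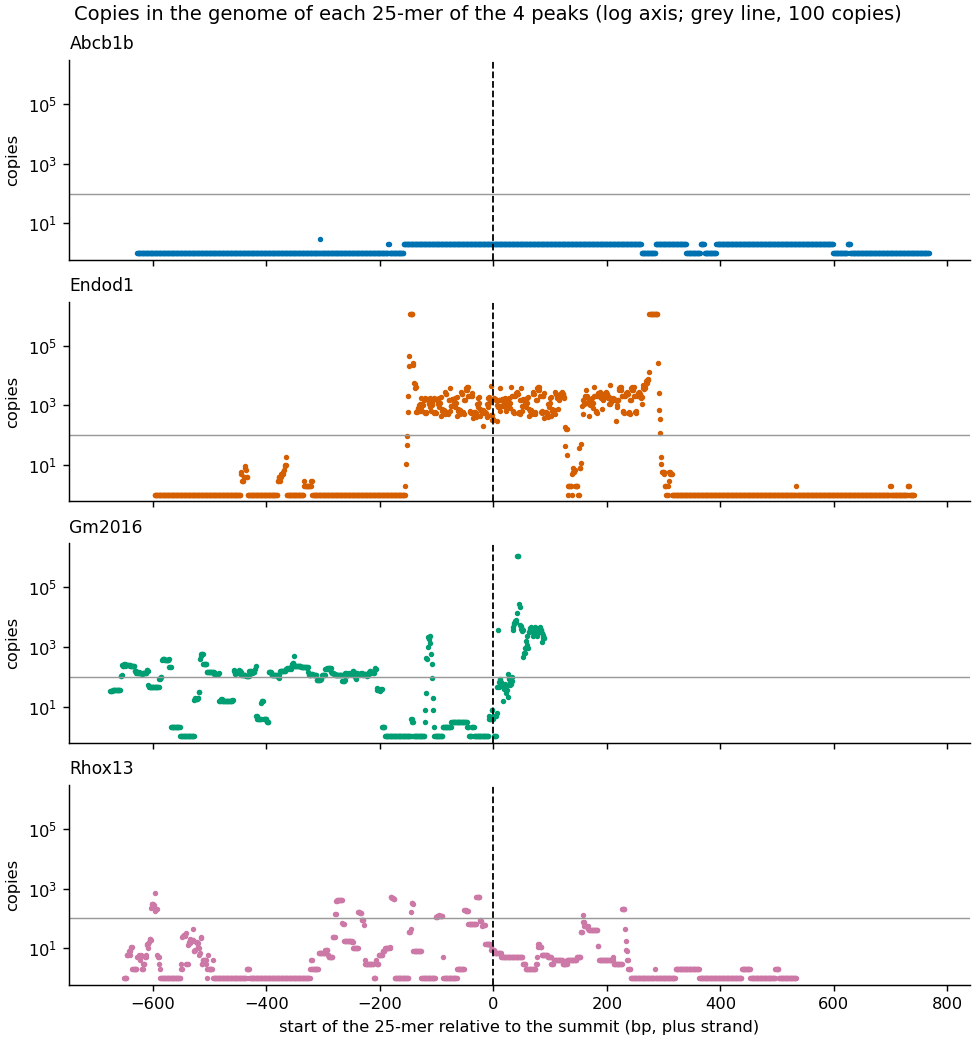
Each point is a 25-mer of a peak, placed by its start relative to the summit (bp) and by its number of copies in the genome on a log axis, with a grey line at 100 copies. Copies of 2 cover the Abcb1b summit, copies above 100 cover the Endod1 summit, and the Gm2016 and Rhox13 peaks mix unique and repeated sequence.

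The position of Gm2016 itself was ambiguous. When its annotated transcript of 1842 bases was aligned to chromosome 12, it matched its own place without a difference and a second place, from 89509082 to 89512944 on the minus strand, with 13 differences (99.3% identity). That second copy falls within the annotated gene Gm5662, and its TSS lies 167324 bp from the summit, nearer than the 233100 bp of the annotated Gm2016. From the midpoint of the peak it is 167605 bp away. The link by which Gm2016 was chosen was drawn at the distance of this copy, not of the annotated gene. With this position 5 instead of 7 coding genes had a TSS nearer to the peak, and Gm5662 was not among them. The peak stands between the near-identical copies, which point towards each other. RNA reads of the copies differ at few positions, and how they were divided between Gm2016 and its copies was not examined here.

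Relatives of the genes shared their peaks. Of 10 Abcb genes of the transporter subfamily, 5 had a replicate 1 peak within 500 kb and 0 a replicate 2 peak. The shares over all coding genes were 15.6% and 5.40%. Abcb1a (188918 bp), Abcb1b and Abcb4 had the peak described above, whereas Abcb11, the bile salt exporter, had its own peak 12993 bp upstream and Abcb9 one 165285 bp downstream. Of 30 Rhox genes, 12 lay within 500 kb of a replicate 1 peak and 0 of a replicate 2 peak, and for all 12 it was the Rhox13 peak. Rhox13 was the nearest of them, followed by Rhox12 at 69447 bp, Rhox11 at 95215 bp and Rhox10 at 113879 bp. Of 4 annotated records of Gm2016 relatives (Gm5662, Gm8300 and BB287469, which has a pair of records), 3 were within 500 kb of the Gm2016 peak. Of 17 known YAP targets and partners, 16 were found by symbol. Of these, 4 had a replicate 1 peak within 500 kb and 0 a replicate 2 peak, where the shares over all coding genes were 15.6% and 5.40%. The summits lay at -55 bp (Ctgf), -104 bp (Wwc2), -394268 bp (Lats1) and -450815 bp (Nf2) from the TSS. The difference from the share over all genes was not tested. The Abcb and Rhox counts include Abcb1b and Rhox13, which were chosen for having a peak in range. Genes of one cluster share a single peak here and are not independent counts, so these counts are no result about the relatives.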

How the data were processed

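Peak lists of 2 YAP ChIP-Seq replicates were used, and 0 files of the input. Per the file headers and the paper's methods, the authors aligned reads to mm9 using bowtie and ran MACS on each replicate separately, without a control and at a p-value cutoff of 1e-05, so a peak was scored against local background of its library. Tags in a peak are counts, deposited unscaled (22696949 and 14965024 unique tags). The deposited score is 10 times the negative log10 of the p-value, and the fold enrichment is the ratio to the local background. Positions and lengths are in bp.

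Summits were placed at start plus offset minus 1 and compared with the TSS of genes in GENCODE vM1 on chromosomes 1 to 19, X and Y. The reference is NCBIM37, which is mm9, and every peak on these chromosomes ended within the chromosome. The 25-mers were counted exactly on both strands. The Gm2016 transcript was aligned with minimap2 2.31. The work used numba 0.67.0, pysam 0.24.0, pandas 2.3.3, numpy 2.4.6, scipy 1.17.1 and matplotlib 3.10.9 in Python 3.11.15, and the functions were tested on simulated data. No significance test was made. The text names the 4 genes, coding genes with a nearer TSS (the 5 nearest where more), the gene holding a summit and list relatives in range. Sesn3, Fam70a, Abcb1a, Gm5662, Gm2075, Gm4027, Gm8300, Adam22, Rhox6, Rhox9, Gm14556, Mapt and Gm21293 were shown or named after their values were seen. The members and lists were chosen with earlier results of these data known. Expression tables served only to check the direction of change of the genes, and their values are not used here. Alternatives were a higher score or fold limit, other distances, positions and overlaps, all annotated genes and leaving out each replicate. The sequences around the Endod1 and Gm2016 summits are not reported here.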

Additional observations from a re-analysis of the deposited data

How the results depend on the processing

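Of 46 alternative values, 31 stayed within their limits and 15 moved. For distances the limit was 1 SD between the replicates, which is so wide for Rhox13 that its far larger distance at a score of at least 100, below, counts as within it. This limit also fixes the labels for leaving out a replicate. The distance without replicate 1 must move, and the distance without replicate 2 is the main value itself and must stay. The tally is therefore a description and does not measure how robust the results are. With a score of at least 100, 0 peaks were left within 500 kb of the 4 genes, so their overlap with replicate 2 could not be computed, and the nearest replicate 1 peak lay 28253975 bp from Abcb1b, 20927036 bp from Endod1, 9187284 bp from Gm2016 and 13427894 bp from Rhox13. Leaving out a replicate gave 0 to 4 peaks, with 0 without replicate 1, and nearest distances of 50848 to 6175519 bp (Abcb1b), 63594 to 7805015 bp (Endod1), 233100 to 1443840 bp (Gm2016) and 59135 to 38370003 bp (Rhox13). A limit of 100 kb left 3 peaks, losing that of Gm2016. The distance to the second copy of Gm2016, an alternative added after seeing the data, was 167324 bp, and with that copy 9 coding genes had a TSS nearer to a linked peak. The number of coding genes with a replicate 1 peak in range, 3479, became 999 at a score of at least 100, 896 within 100 kb, 6123 within 1 Mb, 5803 with all annotated genes and 1207 without replicate 1. With all annotated genes, 20 instead of 11 had a TSS nearer to a linked peak. The count of 0 linked peaks found in replicate 2 was the same under the 3 other definitions of overlap. No paired analysis was possible because neither input library was used here, and only these could be matched to the YAP libraries by number. Depth limits the comparison of the replicates, since replicate 2 had 0.659 times the unique tags of replicate 1.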

Other observations

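Mapt and Gm21293, which meet the same criteria and were looked up after the values of the 4 genes were seen, had peaks of the same strength. The Mapt peak, on chromosome 11 from 104150066 to 104151294, held 44 tags, scored 67.56, was enriched 6.25-fold and had its summit 57853 bp downstream of the TSS. Mapt encodes the microtubule-associated protein tau. The peak linked to Gm21293, on chromosome 10 from 103118929 to 103120210, held 39 tags, scored 55.91 and was enriched 8.46-fold, and Gm21293 has no record in the annotation used. Neither peak was found in replicate 2. The peaks at Ctgf (61 tags, score 69.64, fold enrichment 4.74) and Wwc2 (75 tags, score 62.18, fold enrichment 6.09), which lie at the TSS, were in replicate 1 only as well.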
